A study of Mus musculus with 16 samples.

Results

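Lipg and Prok2 were examined in neutrophils of septic mice, as 2 of the 49315 genes in the count files. Lipg encodes endothelial lipase and Prok2 encodes prokineticin 2, and both proteins are secreted. Both genes were chosen by their rise in blood neutrophils of WT and αD KO mice 12 hours post CLP, so all values of the blood libraries, differences between genotypes in blood included, are given as a description with no test. The lung libraries were not used for that choice, and the comparisons within lung were tested.

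Endothelial lipase belongs to the family of lipoprotein lipase and hepatic lipase. It acts mainly as a phospholipase on high-density lipoprotein, binds heparan sulfate proteoglycans on the cell surface, and is named after the endothelial cells in which it was found. Prokineticin 2, also called Bv8, signals through the G protein-coupled receptors Prokr1 and Prokr2. In myeloid cells it is known as a G-CSF-induced factor with chemotactic and angiogenic activity, and its induction by G-CSF runs through STAT3.

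The libraries were made from neutrophils of blood or lung, gated on Ly6G, CD11b and CD45.2, of male mice aged 8 to 12 weeks. WT mice and mice lacking the integrin subunit αD (CD11d, gene Itgad) were studied untreated (0h) or 12 hours after cecal ligation and puncture (CLP), a surgical model of polymicrobial sepsis. This gave 8 groups of 3 libraries, 24 libraries in all, from 16 labelled samples. In each group the libraries 1a and 1b carry the label of 1 sample and the library 2 that of the other. No source used here ties the libraries to separate animals, so p-values measure only the spread between these libraries, which may be technical. Total counts ranged from 5753476 to 29984954 per library. The libraries 1b held counts for 29162 to 38844 genes, and the others for 17132 to 32666. Levels are given in CPM, the count of a gene scaled to the size of its library. That size was the sum over genes passing a filter on low counts, adjusted by TMM normalization factors, and not the total count.

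Some libraries went against their labels. Itgad, the targeted gene, ranged from 12.5 to 102 CPM where the label was αD KO and from 0.0583 to 3.67 CPM where it was WT (12 libraries each), the opposite of what the labels state. Itgad overlaps 5 other annotated genes, and which exons were removed is not given in the sources used here. Every direction between genotypes below is therefore one between libraries as labelled. In addition, each library was placed on an axis over 1338 genes that changed in WT lung, with Lipg and Prok2 left out, on which 0 is the mean of WT lung at 0h and 1 that at 12h. Of the 24 libraries, 3 lay on the other side of the midpoint of 0.5 than their time label. These were αD KO lung 0h library 2 (position 1.029), αD KO lung 12h library 1a (0.0988) and αD KO lung 12h library 2 (0.190). Results for αD KO lung are given with and without these 3 libraries.

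Prok2 (ENSMUSG00000030069) lies on the minus strand of mouse chromosome 6 at 99711299 to 99726392 in GRCm38. Its exons cover 1917 bases, and GENCODE M21 lists 4 protein-coding transcripts. At its 5′ end Prok2 overlaps Gm26748, which runs on the plus strand from 99725771 to 99732553. The strand setting of the counting is not given in the sources used here, so reads in the overlap could be split or lost. Gm26748 held 0 to 171 counts per library, while Prok2 reached 7227. The 250 bases before the Prok2 start, at chr6:99726393-99726642 on the minus strand (RefSeq, GRCm38.p6), are shown because the gene moved so far between conditions. Capitals mark an E-box (CACGTG, 135 to 130 bases before the start) and an AP-1 match (TGANTCA, here TGAGTCA, 67 to 61 bases before the start).
Prok2 promoter: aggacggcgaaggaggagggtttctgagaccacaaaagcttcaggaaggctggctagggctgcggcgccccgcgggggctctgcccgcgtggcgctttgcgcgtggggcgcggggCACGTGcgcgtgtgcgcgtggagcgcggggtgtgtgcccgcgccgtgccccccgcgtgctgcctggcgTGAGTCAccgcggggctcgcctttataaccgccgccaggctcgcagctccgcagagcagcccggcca

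Of these 250 bases, 73.6% were G or C, against a median of 52.4% over 32851 mouse promoters of the same length. On either strand, 6.02% of those promoters held CACGTG and 6.75% held TGANTCA. The hypoxia response core ACGTG, found in 16.6% of promoters, matched 2 times in the Prok2 window, both inside the E-box. The window held no match to the STAT motif TTCNNNGAA (7.02% of promoters), the C/EBP motif TTGCNNAA (9.56%), the cAMP response element TGACGTCA (1.55%) or the GC box GGGCGG (32.7%). A match describes letters only, and no binding was measured.

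Lipg (ENSMUSG00000053846) lies on the minus strand of chromosome 18 at 74939322 to 74961263 in GRCm38. Its exons cover 3787 bases. GENCODE M21 lists a protein-coding transcript of 10 exons and a transcript with a retained intron, and no other annotated gene overlaps Lipg.

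In blood, Lipg went from a trace level at 0h to one of the more abundant transcripts at 12h. In WT blood it was at 1.02, 1.81 and 0.927 CPM at 0h (1.25 ± 0.487, mean ± SD, n = 3) and at 529, 540.5 and 912 CPM 12 hours post CLP (661 ± 218, n = 3). In αD KO blood it was at 0.758, 1.06 and 0.853 CPM at 0h (0.890 ± 0.154, n = 3) and at 212, 932 and 605 CPM at 12h (583 ± 361, n = 3). Values are listed in the order 1a, 1b and 2 here and below. In both genotypes the lowest library at 12h lay far above the highest at 0h. The fitted log2 fold change was 8.85 ± 0.58 (SE) in WT blood, rank 1 among 14625 genes by size of rise, and 9.17 ± 0.77 in αD KO blood, rank 2 among 14156. Because Lipg was chosen on this contrast, these values carry no test. The share of genes called higher at an adjusted p under 0.05 and a log2 fold change over 1 was 7.75% in WT blood and 3.75% in αD KO blood.

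Prok2 followed the same course in blood, with more spread between libraries than Lipg in every blood group but WT at 0h. In WT blood it was at 0.726, 0.634 and 0.464 CPM at 0h (0.608 ± 0.133, n = 3) and at 231, 106 and 347 CPM at 12h (228 ± 121, n = 3). In αD KO blood it was at 1.64, 0.565 and 2.37 CPM at 0h (1.53 ± 0.910, n = 3) and at 62.6, 647 and 79.8 CPM at 12h (263 ± 333, n = 3). The αD KO mean at 12h rested largely on library 1b. That library also stood apart in summed erythroid markers (5892 CPM, against 27.4 and 517 in libraries 1a and 2). Its sum of immature neutrophil markers was the lowest of the 3 (23340 CPM, against 110600 and 97700). The part of these differences in the result was not tested. The fitted log2 fold change of Prok2 was 8.30 ± 0.55 in WT blood (rank 3) and 7.34 ± 1.18 in αD KO blood (rank 4), chosen on this contrast and so not tested. Without αD KO blood 12h library 1b it was 5.32, and without the libraries 1b of both groups it was 4.94.

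**Figure D1:**
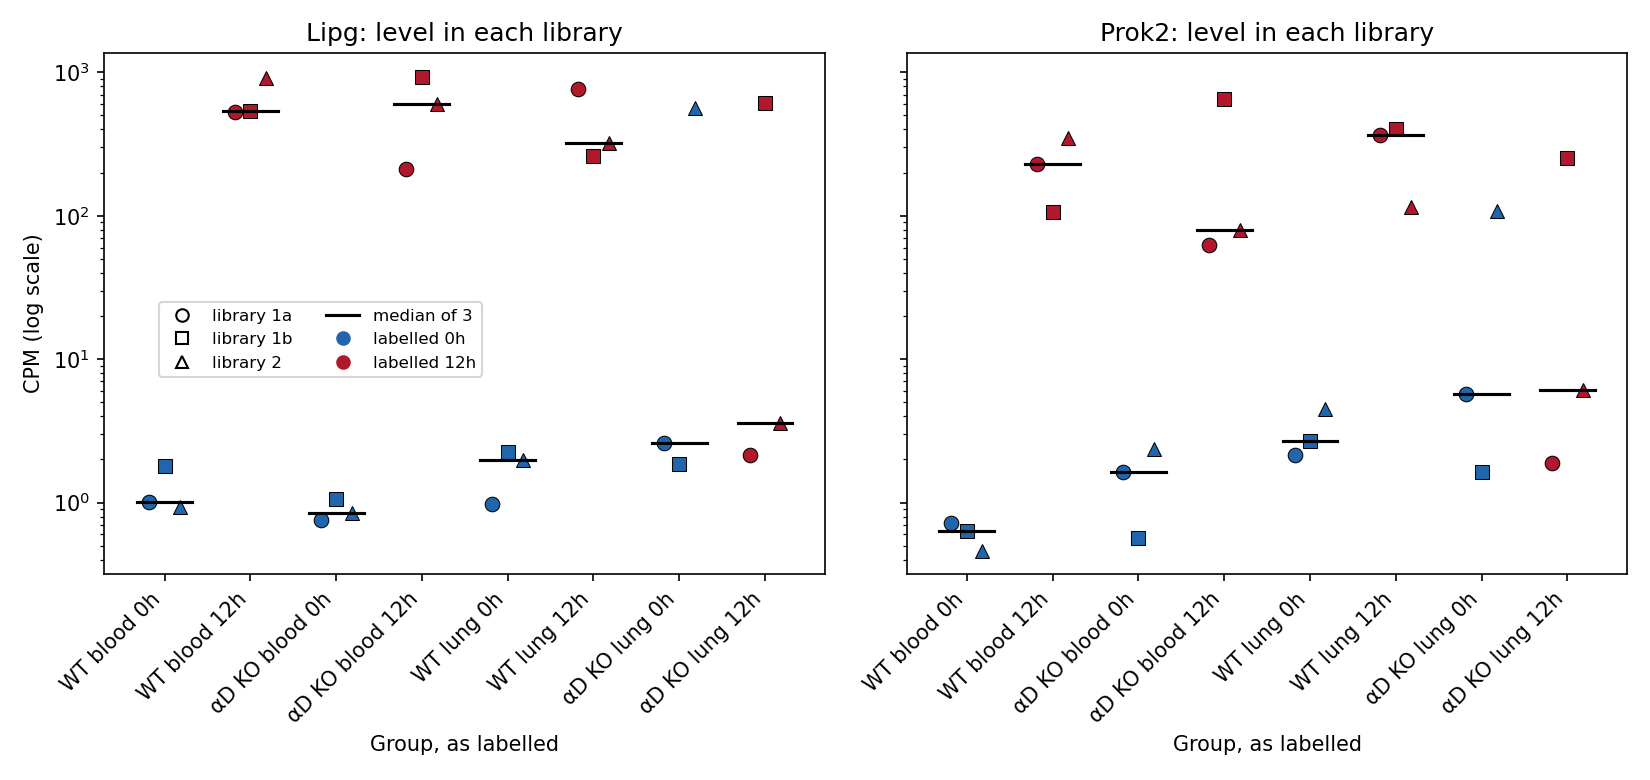
Level of Lipg (left) and Prok2 (right) in each of the 24 libraries, in CPM on a log scale, by labelled group. Each symbol is 1 library (circle 1a, square 1b, triangle 2), blue for 0h and red for 12h, and the bar is the median of 3. In 3 of the 4 pairs of groups every 12h library lies above every 0h library, while in αD KO lung 0h library 2 is high and 12h libraries 1a and 2 are low.

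In WT lung neutrophils, which were not used to choose the genes, both genes rose 12 hours post CLP. Lipg was at 0.976, 2.27 and 1.98 CPM at 0h (1.74 ± 0.681, n = 3) and at 764, 261 and 323 CPM 12 hours post CLP (449 ± 274, n = 3). The groups did not overlap, and library 1a was the highest at 12h. Its log2 fold change was 7.90 ± 0.63 (SE), with an adjusted p of 0.00383 by edgeR's quasi-likelihood test with Benjamini-Hochberg adjustment over 14859 genes, rank 7 among the rises. Prok2 was at 2.14, 2.69 and 4.50 CPM at 0h (3.11 ± 1.23, n = 3) and at 367, 405 and 115 CPM at 12h (296 ± 158, n = 3). Again the groups did not overlap, although library 2 at 12h lay clearly below the other two. Its log2 fold change was 6.63 ± 0.74 by the same edgeR test, with an adjusted p of 0.00492 and rank 21. Both genes were thus called higher, against 5.24% of all genes tested in WT lung. An exact two-sided permutation test of each gene gave p = 0.1, the smallest that 3 libraries against 3 allow. Both tests count libraries 1a and 1b of 1 labelled sample separately. With their counts summed, so that 2 samples were set against 2, the log2 fold changes were 7.73 for Lipg and 6.0 for Prok2 (edgeR adjusted p = 0.00628 and 0.012). The edgeR calls of both genes were lost, with log2 fold changes of 7.24 to 8.07 for Lipg and 6.33 to 6.94 for Prok2, when WT lung 0h library 1a (adjusted p = 0.115 for both), WT lung 0h library 2 (0.112 for both) or WT lung 12h library 1a (0.0552 and 0.0607) was left out.

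In αD KO lung neither gene passed the test between the time labels, and single libraries decided the values. Lipg was at 2.60, 1.86 and 567 CPM at 0h and at 2.15, 612 and 3.60 CPM at 12h. Prok2 was at 5.73, 1.64 and 108 CPM at 0h and at 1.88, 253 and 6.09 CPM at 12h. For both genes, library 2 was the high one at 0h and library 1b the high one at 12h, and the other 4 libraries were near the level of untreated mice. The log2 fold change of 12h against 0h was 0.56 ± 2.37 for Lipg and 1.61 ± 1.92 for Prok2, with an edgeR adjusted p of 1 for both. Of 17939 genes tested, edgeR called 0 (0.0%) in this comparison, with 72 at a p under 0.05 before adjustment, and DESeq2 also called 0. With library number as a block the values were -0.26 and -1.01.

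The high library at each time label moved these values most. Without αD KO lung 0h library 2 the log2 fold change was 6.59 for Lipg and 4.62 for Prok2, and without 12h library 1b it was -6.01 and -3.23. Without 12h library 1a it was 0.73 and 1.79, and without 12h library 2 it was 0.77 and 1.81. Without all 3 libraries on the other side of the WT lung axis, in a fit over all 8 groups with 1 library left at 12h, Lipg was 8.24 higher on the log2 scale at 12h and Prok2 6.20 higher. These values carry no test. Libraries were kept there by their position on an axis of the response to CLP, along which both genes separate, so the direction was fixed by the choice of libraries. The rule for leaving them out was set with earlier results of these data known, and the cause of their position was not tested.

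Across all 24 libraries the levels of both genes fell into separate ranges by the side of the axis on which a library lay. In the 11 libraries above the midpoint Lipg was at 212 to 932 CPM (median 567) and Prok2 at 62.6 to 647 CPM (median 231). In the 13 libraries below it Lipg was at 0.758 to 3.60 CPM (median 1.81) and Prok2 at 0.464 to 6.09 CPM (median 1.88). The lowest library above the midpoint was 58.9 times the highest below it for Lipg and 10.3 times for Prok2. Among all genes ordered by count within a library, Lipg stood at rank 157 to 859 above the midpoint and 8647 to 16625 below it, and Prok2 at 244 to 2778 and 7503 to 23483. The axis was built from WT lung libraries, in which both genes rose, so this is a description.

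**Figure D2:**
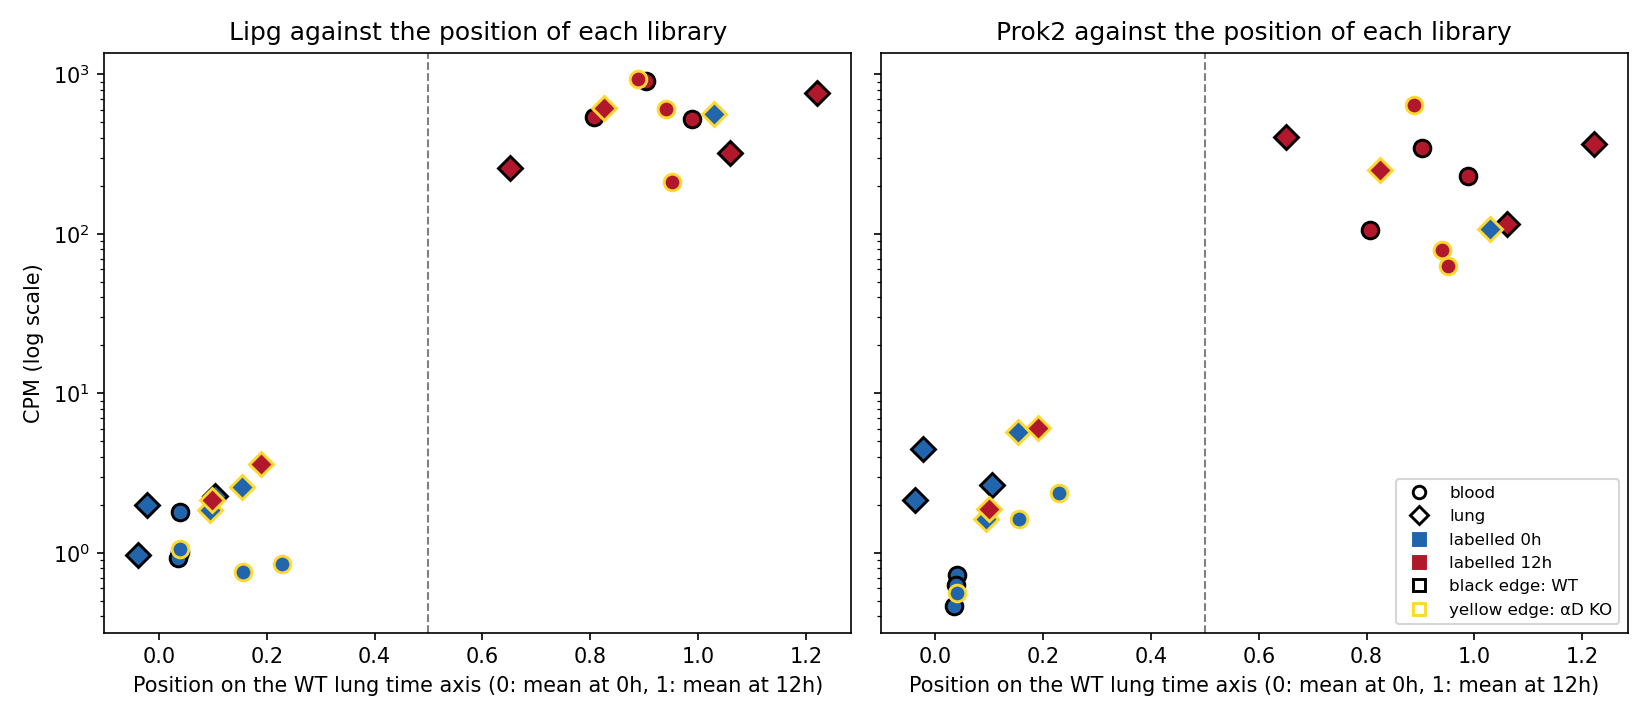
Level of Lipg (left) and Prok2 (right), in CPM on a log scale, against the position of each library on the WT lung time axis (0 is the mean of WT lung at 0h, 1 that at 12h, dashed line the midpoint of 0.5). Circles are blood and diamonds lung, blue is labelled 0h and red 12h, and yellow edges mark αD KO. The 13 libraries left of the midpoint stay at or below 6.09 CPM and include 2 red αD KO lung libraries, and the 11 to its right include 1 blue one.

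In the order of mean log2 CPM, Lipg ran from WT blood 12h through αD KO blood 12h, WT lung 12h, αD KO lung 12h, αD KO lung 0h, WT lung 0h and WT blood 0h to αD KO blood 0h. The means on that scale were 9.32 at the top and -0.01 at the bottom. For Prok2 the order was WT lung 12h, WT blood 12h, αD KO blood 12h, αD KO lung 12h, αD KO lung 0h, WT lung 0h, αD KO blood 0h and WT blood 0h, from 8.01 to -0.50. For both genes every pair of neighbours in the order overlapped between libraries. The αD KO lung groups in the middle mixed high and low libraries, with SDs of 4.47 (12h) and 4.59 (0h) on the log2 scale for Lipg and 3.66 and 3.06 for Prok2, against 0.22 to 1.85 in the other groups of the 2 genes.

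The level of both genes was then compared between genotypes as labelled. Because Itgad went against the genotype labels, this comparison cannot show whether αD bears on the response of neutrophils to sepsis. In blood the genes had been chosen for a large rise in both genotypes, which limits how far the genotypes could differ at 12h, so the blood differences carry no test. In blood at 0h, the log2 difference of αD KO against WT was -0.59 ± 0.86 (SE) for Lipg and 1.21 ± 0.88 for Prok2, and the libraries of the genotypes overlapped for both. With library number as a block the values were -0.47 and 1.12, and without WT blood 0h library 1b the Lipg value was -0.01. In this comparison 0.0115% of 17356 genes were called. In blood at 12h it was -0.10 ± 0.54 for Lipg and 0.42 ± 0.90 for Prok2, again with overlapping libraries, and edgeR called 0 of 12596 genes (0.0%), with 505 at a p under 0.05 before adjustment and DESeq2 calling 16. The sign of the Prok2 value rested on library 1b of αD KO blood at 12h, without which it was -1.74. The Lipg value was 0.08 without WT blood 12h library 2 and 0.28 without αD KO blood 12h library 1a.

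In lung no genotype difference passed the test for either gene, and single αD KO libraries moved the values at both times. At 0h the log2 difference was 6.55 ± 2.22 for Lipg and 3.44 ± 1.36 for Prok2 (unadjusted p = 0.0212 and 0.0388, edgeR adjusted p = 0.983 for both). Library 2 was the single αD KO lung library far above the WT range, without which the values were 0.41 and 0.31. Without all 3 libraries they were 0.35 and 0.28, and with library number as a block 2.55 and 1.81. As for the change over time, leaving out the 3 libraries by their place on the axis brings the αD KO lung values towards those of WT by construction, here, in the interaction and in lung against blood. At 12h the log2 difference was -0.75 ± 1.72 for Lipg (edgeR adjusted p = 0.936) and -1.52 ± 1.55 for Prok2 (0.818), and without the 3 libraries it was 0.58 and -0.12. With library number as a block it was -5.47 and -3.97. Without αD KO lung 12h library 1b alone, which lay on the side of the axis of its time label, it was -7.23 (edgeR adjusted p = 0.0506) and -6.25 (0.0706). Without library 1a alone it was -0.36 and -1.06, and without library 2 alone -0.32 and -1.06. Without the libraries 1b, which left only the 2 low libraries in αD KO lung at 12h, both genes passed the edgeR test as lower, by -7.40 for Lipg (adjusted p = 1.4e-05) and -5.76 for Prok2 (adjusted p = 0.000153). At 0h edgeR called 0 of 18232 genes (0.0%), with 340 at a p under 0.05 before adjustment and DESeq2 calling 6. At 12h it called 0 of 16764 (0.0%), with 1390 under 0.05 and 192 called by DESeq2.

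Whether the lung change itself differed between genotypes was tested as an interaction over the 12 lung libraries. The interaction was -7.43 ± 3.03 on the log2 scale for Lipg (unadjusted p = 0.0302, edgeR adjusted p = 0.422) and -5.04 ± 2.29 for Prok2 (0.0482 and 0.473). It was -1.28 and -1.89 without αD KO lung 0h library 2, and -13.75 and -9.64 without αD KO lung 12h library 1b. Neither passed, and edgeR called 0 of 23211 genes (0.0%), with 2432 at a p under 0.05 before adjustment and DESeq2 calling 350. Without the 3 libraries the interaction was 0.24 for Lipg and -0.40 for Prok2, and without the libraries 1b it was -14.80 and -9.67 with an edgeR adjusted p of 0.027 for both. Itgad ran opposite to both genes in αD KO lung, at 51.9, 68.0 and 17.7 CPM at 0h and 82.8, 14.1 and 102 CPM at 12h, lowest in the library of each time in which Lipg and Prok2 were high. In the other groups its mean level was also lower at 12h than at 0h, at 16.5 against 70.0 CPM in αD KO blood, 0.200 against 2.81 CPM in WT blood and 0.442 against 2.25 CPM in WT lung (n = 3 each).

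**Figure D3:**
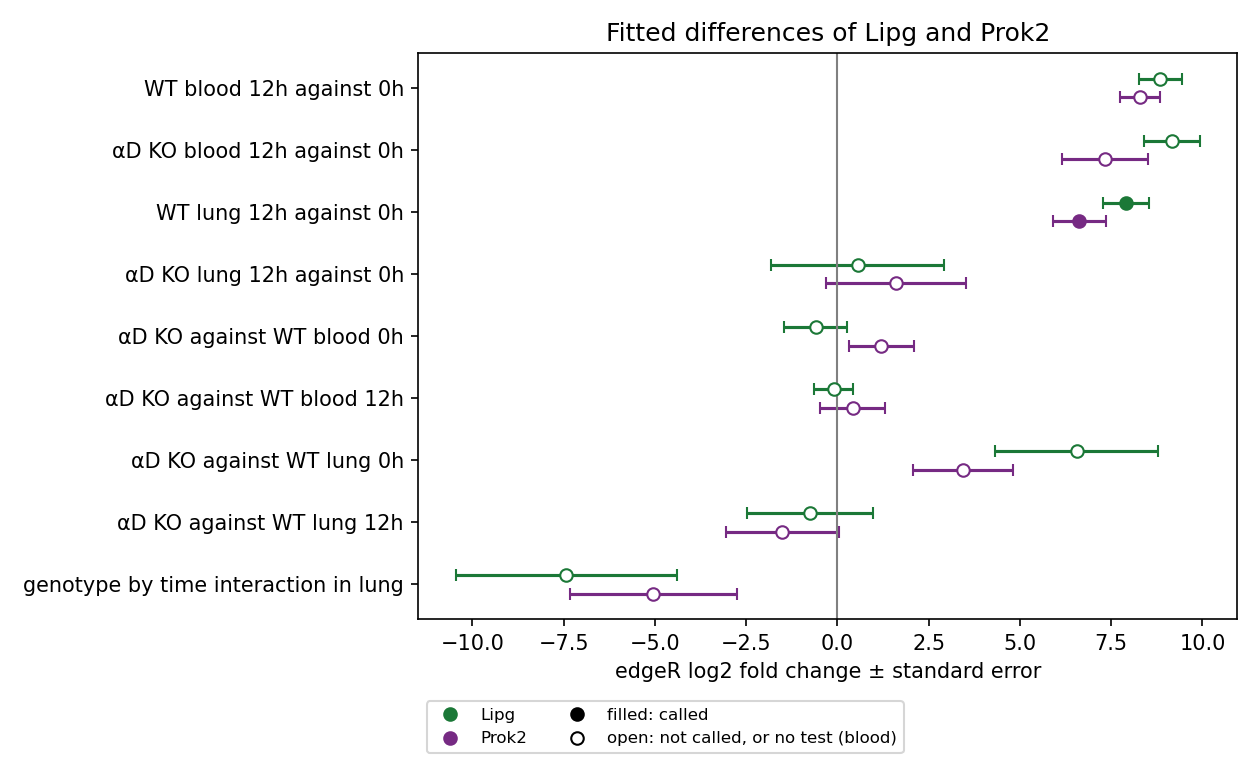
Fitted log2 fold changes of Lipg (green) and Prok2 (purple), with bars of 1 standard error, for the 12h against 0h comparisons, the αD KO against WT comparisons and the interaction in lung. Filled points passed the edgeR test and the fold threshold, and open points did not or, for all comparisons in blood, where the genes were chosen, carry no test. WT lung is the only tested comparison with filled points, at 7.90 and 6.63.

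Lung and blood were close 12 hours post CLP in WT mice. The log2 difference of lung against blood was -0.54 for Lipg and 0.64 for Prok2, though the Prok2 value was -0.32 without the libraries 1b and -0.05 without WT lung 12h library 1b, and the libraries of both tissues overlapped for each gene. Since the blood level at 12h was part of the choice, no test is given. In mice labelled αD KO the log2 differences were -1.07 for Lipg and -1.22 for Prok2, and without the 3 libraries they were 0.24 and 0.06. Without αD KO lung 12h library 1b they were -7.65 and -6.09, with library number as a block -5.32 and -3.20, and without αD KO blood 12h library 1b -0.55 and 0.72. Per length, Lipg and Prok2 were of the same order. Above the axis midpoint the ratio of Lipg to Prok2 in RPKM, which is CPM per kilobase of exon, ran from 0.326 in WT lung 12h library 1b to 3.83 in αD KO blood 12h library 2.

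Genes were then ranked by how closely their levels followed those of Lipg and Prok2. Both were chosen for their rise in blood, and 12 of the 24 libraries are those blood libraries, so a high correlation between the 2 genes is built in. Over the 24 libraries and 27043 genes with enough counts, the 5 genes with the highest Pearson correlation of log2 CPM with Lipg were Nos2 (0.978), Adamtsl4 (0.973), AA467197 (0.968), Prok2 (0.966) and Fam20c (0.964). For Prok2 they were Ggt1 (0.967), Lipg (0.966), Gpr84 (0.962), Scamp1 (0.950) and Asnsd1 (0.948). Nos2 encodes inducible nitric oxide synthase, Ggt1 a gamma-glutamyltransferase, and Gpr84 a receptor for medium-chain fatty acids. Nos2 was at a mean of 1.31 CPM in WT blood at 0h and 168 at 12h, and at 1.17 and 165 CPM in WT lung. Gpr84 was at 4.25 and 237 CPM in WT blood and 5.53 and 152 CPM in WT lung. The libraries fall into low and high clusters for these genes, differ in depth, and are not independent points, so the coefficients are descriptive. By Spearman correlation Prok2 was rank 4 for Lipg and Lipg rank 8 for Prok2, and 1 of the 5 genes nearest Lipg and 2 of the 5 nearest Prok2 kept a place among the nearest 5.

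**Figure D4:**
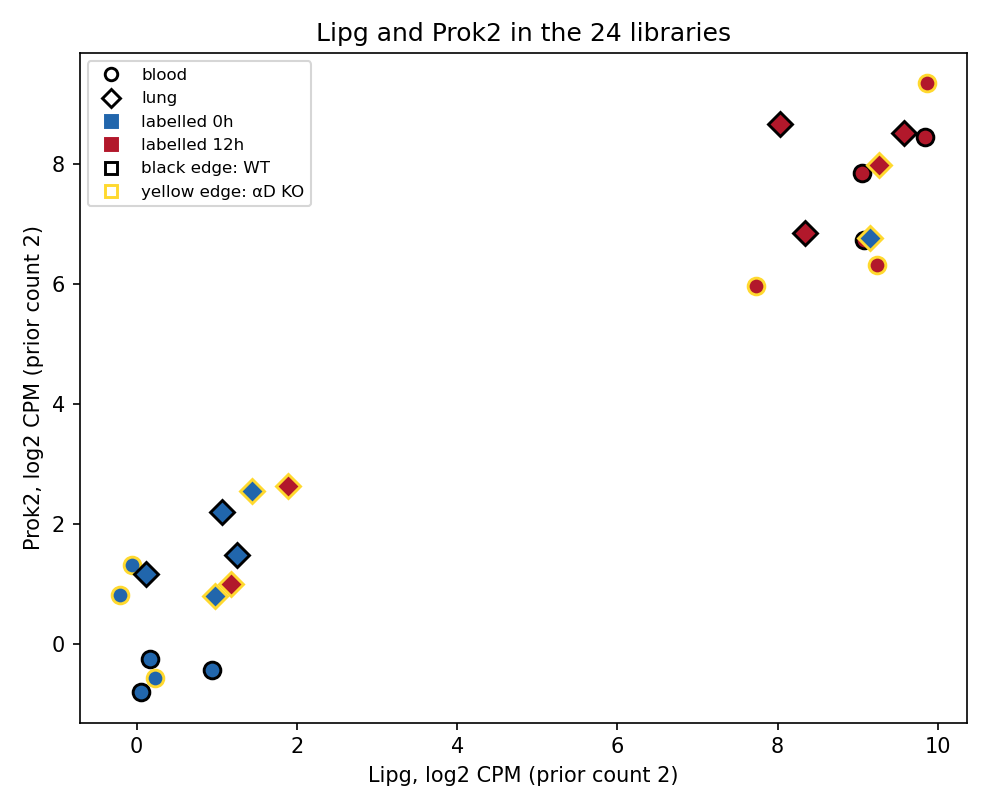
Log2 CPM (prior count 2) of Prok2 against that of Lipg in the 24 libraries. Circles are blood and diamonds lung, blue is labelled 0h and red 12h, and yellow edges mark αD KO. The points form a low cluster of 13 libraries and a high cluster of 11, with 1 blue diamond in the high cluster and 2 red diamonds in the low one.

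Genes around endothelial lipase were called in both directions in WT blood and as lower in αD KO blood and WT lung, in counts too small to read a direction from. Of 32 genes in a list of related lipases, their maturation factors, inhibitors, proteoglycan anchors and lipoprotein partners, 16 were tested in WT blood, where 1 rose and 3 fell, 16 in αD KO blood (0 rose, 3 fell), 18 in WT lung (0 rose, 2 fell) and 22 in αD KO lung (0 and 0). Over all genes tested, 7.75% were called higher and 5.75% lower in WT blood, 3.75% and 4.99% in αD KO blood, and 5.24% and 3.78% in WT lung. The median log2 fold change of the tested list genes was -0.19, -1.02, 0.37 and -0.26 in that order, beside -0.15, -0.14, 0.03 and -0.05 over all genes tested, so the list median in WT lung lay above that of all genes although its calls were lower.

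Among the lipases, Lpl, which encodes lipoprotein lipase, fell in αD KO blood, from 3.28, 9.46 and 22.8 CPM to 1.14, 2.15 and 0.786 CPM (log2 fold change -3.31 ± 0.80, edgeR adjusted p = 0.0423). In WT blood its value was -1.63 ± 0.96, which did not pass. The highest value came from αD KO blood 0h library 2, which also stood apart in summed markers of T and NK cells (255 CPM, against 23.95 and 11.8 in libraries 1a and 1b) and of B cells (1346 CPM, against 556 and 320). At 12h these sums were 9.94 to 17.4 and 37.4 to 136 CPM, and their part in the result was not tested. Pla1a, a phosphatidylserine-specific phospholipase of the same family, fell in WT blood from 23.3, 17.5 and 19.6 CPM to 2.51, 3.42 and 5.43 CPM (-2.61 ± 0.36, edgeR adjusted p = 0.00571). Hepatic lipase (Lipc) stayed at or below 1.24 CPM in every library. Lmf1, a chaperone that lipases of this family need to fold, was at 0.225 to 8.24 CPM and passed no test, and neither did Gpihbp1, the endothelial anchor of lipoprotein lipase, nor Angptl4, a lipase inhibitor, in the comparisons in which they were tested.

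On the lipoprotein side, Abcg1 and Apoe fell in blood of both genotypes and in WT lung. Abcg1, which moves cholesterol to high-density lipoprotein, went from 48.5, 48.7 and 52.4 CPM to 3.85, 3.92 and 7.17 CPM in WT blood (log2 fold change -3.55 ± 0.32, edgeR adjusted p = 0.00181). It fell by 3.33 on the log2 scale in αD KO blood and by 1.51 in WT lung. Apoe, which encodes apolipoprotein E, fell by 2.67, 3.37 and 3.05 on the log2 scale in WT blood, αD KO blood and WT lung (edgeR adjusted p = 0.0194, 0.0354 and 0.0208). In αD KO blood it was at 359, 109 and 1046 CPM at 0h, highest in the same library 2. The monocyte markers Ccr2 and Cx3cr1 were at 294 and 163 CPM in that library, against 40.1 and 16.2 in library 1a and 2.68 and 2.40 in library 1b. Summed markers of monocytes and macrophages were at 486 to 1743 CPM in blood at 0h and 548 to 1063 CPM at 12h, with Ly6c2 higher at 12h and Csf1r, Adgre1 and Siglecf lower. Csf1r was at 823, 305 and 836 CPM in WT blood at 0h and 142, 83.1 and 216 CPM at 12h, and at 629, 445 and 718 CPM and 233, 151 and 217 CPM in WT lung. The part of these cells in the fall of Apoe, Abcg1 and Lpl was not tested. Scarb1, the receptor for high-density lipoprotein, rose in WT blood from 6.03, 4.07 and 13.6 CPM to 30.8, 18.7 and 36.7 CPM (1.67 ± 0.42, edgeR adjusted p = 0.0374). In WT lung Scarb1 was 1.78 ± 0.49 higher with an adjusted p of 0.0598, and Abca1, another cholesterol exporter, 3.18 ± 0.86 higher with an adjusted p of 0.0561, and neither passed.

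Around prokineticin 2, Cish rose, Csf3r fell, and the receptor genes Prokr1 and Prokr2 stayed at low levels. Of 18 genes of prokineticin and G-CSF signalling, 16 were tested in WT blood (2 rose, 1 fell), 15 in αD KO blood (2 rose, 1 fell), 16 in WT lung (3 rose, 1 fell) and 16 in αD KO lung (0 and 0). The rises include Csf3 in each of the first 3, which is given below as levels only. The shares of all genes called were 7.75% higher and 5.75% lower in WT blood, 3.75% and 4.99% in αD KO blood, and 5.24% and 3.78% in WT lung. The median log2 fold change of the list was -0.36, 0.25, 0.78 and 0.18 in that order, beside the medians over all genes given above. The related ligand Prok1 was at or near 0, with at most 1.19 CPM, and was not tested. The receptor genes Prokr1 and Prokr2 were at no more than 4.08 and 13.8 CPM. Prokr1 passed no test, nor did Prokr2 where it was tested.

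Csf3, which encodes G-CSF, was near 0 in untreated mice of both blood groups and of WT lung. It rested on 3, 2 and 4 counts in WT blood at 0h, 13, 1 and 5 in αD KO blood and 3, 9 and 11 in WT lung. It could pass the filter on low counts through the 12h group alone, so its calls are not read as results and its values are a description. Csf3 was at 0.109, 0.181 and 0.168 CPM in WT blood at 0h and at 16.2, 1.41 and 23.0 CPM at 12h, and in αD KO blood it went from 0.547, 0.0706 and 0.185 CPM to 12.6, 1.34 and 7.36 CPM. In WT lung it went from 0.113, 0.465 and 0.446 CPM to 448, 1.84 and 165 CPM, so that library 1b, with 405 CPM of Prok2, held almost no Csf3. In αD KO lung Csf3 was at 167 CPM in 0h library 2 and 38.2 CPM in 12h library 1b, and at no more than 1.05 CPM in the other 4 libraries. Its receptor gene Csf3r fell, from 10920, 4366 and 11370 CPM to 1457, 1020 and 2605 CPM in WT blood (log2 fold change -2.58 ± 0.51, edgeR adjusted p = 0.0182). Csf3r also fell by 2.37 on the log2 scale in αD KO blood and by 1.81 in WT lung.

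Of the genes downstream of cytokine receptors, Cish, which encodes an inhibitor of cytokine signalling, rose in WT blood (log2 fold change 5.11 ± 0.39), αD KO blood (4.70 ± 0.89) and WT lung (5.26 ± 0.64), with edgeR adjusted p of 0.00128, 0.0204 and 0.00545. Bcl3, a nuclear cofactor of NF-κB, rose in WT lung (2.33 ± 0.41, edgeR adjusted p = 0.017). Stat3 and its feedback inhibitor Socs3 passed no test. Stat3 was at 254 to 1164 CPM over all libraries, with log2 fold changes of 0.06, 0.49 and 0.64 in WT blood, αD KO blood and WT lung, and those of Socs3 were -0.77, 0.10 and 1.501.

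Of 15 genes for angiogenic and inflammatory mediators, 12 were tested in WT blood (2 rose, 3 fell), 9 in αD KO blood (2 rose, 3 fell), 12 in WT lung (2 rose, 0 fell) and 14 in αD KO lung (0 and 0). Counted in either direction, 13.5% of all genes tested were called in WT blood, 8.75% in αD KO blood and 9.02% in WT lung. The median log2 fold change of the list was -0.17, 0.27, 0.21 and -0.08. Thbs1, which encodes the matrix protein thrombospondin-1, rose in all 3 called comparisons, by 4.13 ± 0.78, 3.65 ± 0.88 and 5.48 ± 1.397 (edgeR adjusted p = 0.0157, 0.0419 and 0.0477), and Tnf by 2.58 ± 0.49, 2.68 ± 0.39 and 4.66 ± 0.95 (0.0158, 0.00767 and 0.026). Il1b fell in blood of both genotypes, by 2.91 and 1.89 on the log2 scale, while in WT lung its value was 0.41 ± 0.74. The falls counted above include the angiopoietin genes Angpt2 in WT blood and Angpt1 in αD KO blood, which held 1, 8 and 1 and 2, 4 and 0 counts at 12h. Both could pass the filter through the 0h group alone, so these calls are not read as results. Angpt2 was at 8.79, 3.08 and 4.17 CPM in WT blood at 0h and at no more than 0.402 CPM at 12h. Summed platelet markers moved with Angpt1, which was at 7.32, 1.13 and 7.01 CPM in αD KO blood at 0h. They were at 558, 23.6 and 641 CPM there and at 36.6, 4.75 and 41.9 CPM at 12h, and their part in the result was not tested. Vegfa and Mmp9 passed no test in any of the 4 comparisons.

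**Figure D5:**
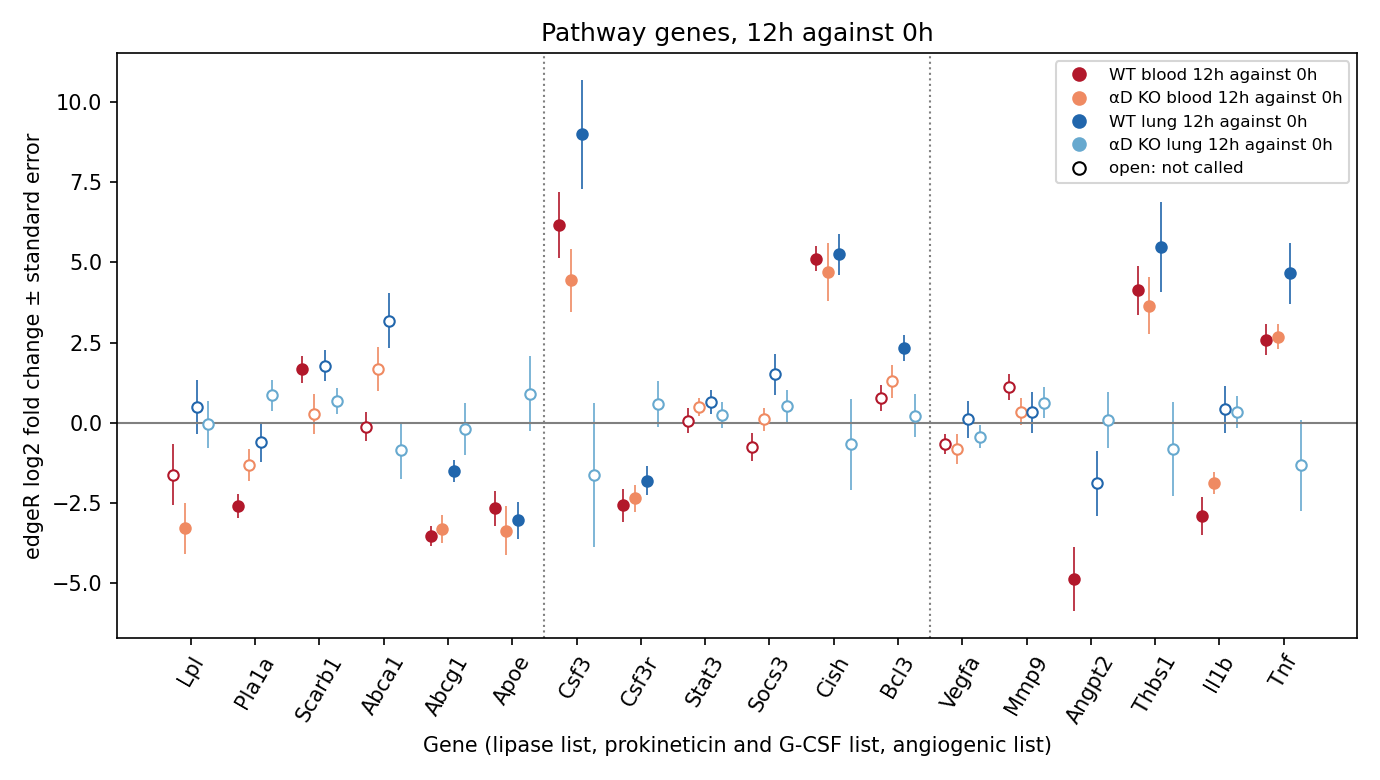
Log2 fold change of 12h against 0h, with bars of 1 standard error, for 18 named genes of the lipase list (left), the prokineticin and G-CSF list (middle) and the angiogenic list (right), in WT blood (dark red), αD KO blood (light red), WT lung (dark blue) and αD KO lung (light blue). Filled points passed the edgeR test and the fold threshold, and a gene not tested in a comparison has no point there. Cish, Thbs1 and Tnf are filled and above 0, and Abcg1, Apoe and Csf3r filled and below 0, in every comparison but αD KO lung, and the filled points of Csf3 and Angpt2 are of genes that could enter the test through the higher group alone.

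The calls on these lists were sensitive to single libraries. Of the 65 list genes, 12 of 44 tested were called in WT blood, 11 of 40 in αD KO blood and 8 of 46 in WT lung, beside 13.5%, 8.75% and 9.02% of all genes tested. Leaving out 1 library at a time gave 0 to 13, 1 to 11 and 0 to 16. In WT blood the count fell to 2 without 0h library 1a or 0h library 2, to 1 without 12h library 1a and to 0 without 12h library 2. In αD KO blood it fell to 1 without 0h library 1a or 12h library 2, to 2 without 12h library 1a and to 5 without 0h library 2. In WT lung it was 4 without 0h library 1b, 16 without 12h library 1b, and 0 without any other single library.

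Markers were checked because a sorted bulk sample can hold other cells, and because fewer cells of a type and less RNA per cell cannot be told apart in it. All 10 neutrophil markers were detected in every group. Their summed level, carried mostly by S100a8 and S100a9, was 27010 to 57350 CPM in the 6 blood libraries at 0h and 121100 to 227100 CPM in the 6 at 12h, and 34290 to 49360 and 110200 to 150400 CPM in WT lung, with no overlap between the times. In αD KO lung it was 63780, 40060 and 109900 CPM at 0h and 51960, 100400 and 69200 CPM at 12h, highest in the libraries with high Lipg and Prok2. The members did not all move with the sum. Csf3r fell, as given above, and Cxcr2 was at 4523, 2037 and 4119 CPM in WT lung at 0h and 1410, 1490 and 1614 CPM at 12h, without passing the test (log2 fold change -1.23 ± 0.46, edgeR adjusted p = 0.129). The part of these differences in the result was not tested. Of the 10 markers of immature neutrophils, the granule and secretory genes Ngp, Camp, Ltf and Chil3 made up most of the summed level, and this sum was higher at 12h in blood and WT lung, as were Lipg and Prok2. The sum of all 10 was 65.5 to 6877 CPM in WT blood at 0h and 65930 to 164800 at 12h, 164 to 18620 and 23340 to 110600 in αD KO blood, and 164 to 1398 and 18480 to 56890 in WT lung. In αD KO lung it was 15800, 198 and 58740 CPM at 0h and 7272, 13560 and 9991 at 12h, so that library 1a at 0h exceeded 12h library 1b while its Lipg and Prok2 stayed low. The proliferation gene Mki67 was at 28.4, 18.1 and 27.6 CPM in WT blood at 0h and 22.8, 13.7 and 31.1 CPM at 12h. In WT lung Mki67 was at 32.3, 13.02 and 24.1 CPM at 0h and 72.7, 12.3 and 60.3 CPM at 12h. In αD KO lung 0h library 2 it was at 47.4 CPM, against 18.7 and 10.1 in libraries 1a and 1b. At 12h Mki67 was at 17.0, 11.3 and 18.8 CPM in αD KO lung and 34.6, 5.55 and 41.0 CPM in αD KO blood. There it was lowest in library 1b, in which Lipg and Prok2 were highest. In WT blood Top2a was at 1.05 to 6.79 and 1.11 to 2.46 CPM. The primary granule genes Elane, Mpo and Ctsg were at or below 1.12, 1.98 and 0.543 CPM in every library, and Prtn3 at or below 9.67 CPM. The part of immature neutrophils in the rise of Lipg and Prok2 was not tested.

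Endothelial cells are the cells for which Lipg is named, and their markers were measured for that reason. The sum of all 12 endothelial markers was 19.9 to 49.1 CPM in blood at 0h and 7.43 to 24.1 CPM at 12h, and 50.2 to 185 CPM in lung at 0h and 49.0 to 167 CPM at 12h. In blood the highest member was Pecam1, at 2.96 to 31.3 CPM (median 14.6, against 16.4 in lung). Kdr reached 6.88 CPM in blood, and Cdh5 and Cldn5 were at no more than 2.08 and 2.74 CPM there. Among lung libraries with high Lipg the sum was 101, 84.8 and 157 CPM in WT at 12h, 135 CPM in αD KO 0h library 2 and 49.0 CPM in αD KO 12h library 1b. In lung libraries with low Lipg the WT values at 0h were 63.0, 185 and 50.2 CPM, beside 139 and 116 CPM in αD KO 0h libraries 1a and 1b, and 77.5 and 167 CPM in αD KO 12h libraries 1a and 2, so the ranges overlapped. The part of endothelial cells in the level of Lipg was not tested. Summed B cell markers were at 266 to 1346 CPM in blood at 0h and 37.4 to 229 CPM at 12h, and at 419 to 781 CPM and 35.1 to 84.6 CPM in WT lung.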

How the data were processed

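Per the labels, RNA was purified from neutrophils and libraries were made with Illumina Nextera XT. The study's methods add the sort, full-length cDNA synthesis (SMART-Seq v4) and paired-end reads. The submitters' processing notes name Trimmomatic 0.36, STAR 2.5.2b and GRCm38 (mm10). The counter and its strand setting are not given in the sources used here. The authors deposited raw read counts per gene in 24 files, 2 for the first and 1 for the second sample of each group, and 0 columns of per-sample values were left unused. The 2 files of a sample differed beyond counting noise and were each taken as a library, as the study speaks of triplicates.

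Lipg and Prok2 and the gene lists were chosen with earlier results of these data known. Symbols were matched by Ensembl identifier, and 44655 genes had the same position as in GENCODE M21. Counts were fitted with edgeR 4.0.16 in R 4.3.3 (filterByExpr, TMM, quasi-likelihood F test, 2 groups per fit, 12 libraries for the interaction), and a gene was called where the adjusted p was under 0.05 and the change exceeded 1 on the log2 scale in either direction. The standard error is the absolute log2 fold change divided by the square root of F. DESeq2 1.42.0, the study's tool, and other settings were tried as alternatives, and the script was tested on simulated counts. For Lipg and Prok2 the blood comparisons were fitted, genotype differences included, but are given with no test. Both genes passed the filter in every comparison. In the comparisons over time they could pass through the high group alone, as could list genes near 0 in the other group (Csf3, and in blood Angpt1 and Angpt2). CPM used library sizes over the genes kept by the filter on all groups together, scaled by TMM factors. Log2 CPM used the same sizes and a prior count of 2. Of the lists, 15 genes were named whatever their values, with up to 3 called genes per list and comparison by size of change, and the 5 genes most like each of Lipg and Prok2. Marker lists for lung epithelial cells (summed level 3.73 to 820 CPM), monocytes and macrophages (486 to 1743), T and NK cells (5.13 to 255), platelets (3.37 to 641) and erythroid cells (27.4 to 9060) were also checked.

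The main fits used no pairing, and library number entered a fit as a block only as an alternative setting. As a check on pairing, the deviations of libraries 1a, 1b and 2 from their group means were correlated between 2 groups. In some comparisons the correlation was above 0.1 for every number. This held for WT blood over time (0.164 to 0.59), αD KO lung over time (0.207 to 0.393), genotype in blood at 0h (0.313 to 0.752) and lung against blood at 12h (0.183 to 0.33 in WT, 0.153 to 0.334 in αD KO).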

Additional observations from a re-analysis of the deposited data

How the results depend on the processing

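Of 357 recomputed values under alternative settings, 298 were taken as unchanged. Fold changes over time in blood and of lung against blood had to stay within the spread between libraries. The other fold changes had to keep their direction and their side of the threshold. Counts of called list genes and of nearest genes had to stay near the main count, and the list count in αD KO lung was 0 throughout. The log2 fold changes of Lipg and Prok2 in WT blood and of Lipg in αD KO blood stayed within that spread under every alternative run. The genotype differences in lung at 0h kept their sign and never passed the threshold, but their sizes ran from 0.35 to 7.58 for Lipg and from 0.28 to 4.10 for Prok2. With library number as a replicate block, αD KO lung 12h against 0h was -0.26 (Lipg) and -1.01 (Prok2), the genotype difference of Prok2 in blood at 12h -0.72, αD KO lung against blood for Lipg -5.32, and the genotype difference in lung 2.55 and 1.81 at 0h and -5.47 and -3.97 at 12h. The block changed no call of Lipg or Prok2. Leaving out the 3 αD KO lung libraries was not run for the comparisons within WT, which hold none of them. With the files of sample 1 summed, Lipg in αD KO lung was -0.93, Prok2 between genotypes in blood at 12h -0.34, and 16 list genes were called in WT lung. Without the libraries 1b, Prok2 in αD KO blood was 4.94, Lipg and Prok2 in αD KO lung -6.60 and -3.81, Prok2 between genotypes in blood at 12h -2.01, both genes between genotypes in lung at 12h -7.40 and -5.76, the interaction -14.80 and -9.67, Prok2 in WT lung against blood -0.32, Lipg in αD KO lung against blood -6.97, and 23 list genes were called in WT lung. Without the 3 libraries against their time label, Lipg was 8.24 in αD KO lung, 0.58 between genotypes in lung at 12h and 0.24 in the interaction. Of 65 list genes, 8 were called in WT lung against 3 with all 8 groups in one fit and 15 with DESeq2, and 11 in αD KO blood against 1 with all 8 groups and 17 without a filter on low counts. Of the 5 genes most like Lipg, 1 stayed by Spearman correlation and 2 without the libraries 1b, and of those most like Prok2, 2 and 2.

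Leaving out 1 library at a time gave 7.24 to 8.18 for Lipg and 5.92 to 6.94 for Prok2 in WT lung, -6.01 to 6.59 and -3.23 to 4.62 in αD KO lung, -0.81 to 0.28 and -1.74 to 0.84 between genotypes in blood at 12h, 0.41 to 7.13 and 0.31 to 4.07 between genotypes in lung at 0h, -7.23 to -0.32 and -6.25 to -1.06 at 12h, -13.75 to -1.28 and -9.64 to -1.89 for the interaction, -7.65 to -0.55 and -6.09 to 0.72 for αD KO lung against blood, and 5.32 to 7.81 for Prok2 in αD KO blood. The list counts ran from 0 to 13 in WT blood, 1 to 11 in αD KO blood and 0 to 16 in WT lung. The cause of a change was not tested under any setting. In the 13 libraries below the axis midpoint Lipg and Prok2 rested on 7 to 154 counts, so differences among them are imprecise, while the other 11 held 877 to 13104 counts.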
